A study of Mus musculus with 26 samples.

Results

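The enzymes that make bile acids from cholesterol and conjugate them were followed as a set of 10 genes among the 47643 genes counted in mouse liver. The set was chosen by name: each gene identifier of the count table, without its version, was matched to the symbols Cyp7a1, Cyp8b1, Cyp27a1, Cyp7b1, Cyp39a1, Hsd3b7, Akr1d1, Amacr, Baat and Slc27a5, and all 10 were found. Bile acids are made from cholesterol in hepatocytes by a classic route, which opens with Cyp7a1, and by an alternative route, in which mitochondrial Cyp27a1 first oxidises the side chain and Cyp7b1 then hydroxylates the ring. Both routes share enzymes that modify the steroid ring and shorten the side chain, and the product is joined to taurine or glycine before it is secreted. Bile acids repress their own synthesis: they bind the nuclear receptor Fxr (gene Nr1h4), which induces the repressor Shp (gene Nr0b2) in liver and the hormone Fgf15 in intestine.

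Messenger RNA was sequenced in 26 libraries that form 10 groups, in 5 experiments with a control each. Wild type C57BL/6J mice of 8 weeks, fed ad libitum, received TCPOBOP, an agonist of the receptor CAR, or its vehicle corn oil (2 libraries each); a label gives the time after injection as 36 hours and another as 6, so the time is uncertain. Fxr-/- Shp-/- double knockout mice were compared with wild type mice, both C57BL/6J, 12 weeks old and fed ad libitum (3 libraries each). C3H/HeN mice of 8-10 weeks, fed ad libitum, were taken 48 h after partial hepatectomy or as sham controls at 0 h (3 libraries each, with no genotype in the labels). There was no sham group at 48 h, so hepatectomy and the time after surgery cannot be told apart in any result below. Isolated hepatocytes came from wild type C57BL/6J mice of 16 weeks that were fasted for 10 h after a diet with 60% fat or chow (2 libraries each). The last experiment used mice with floxed alleles of Fxr and Shp (fl/fl Fxr fl/fl Shp), C57BL/6J, 10-12 weeks old and fasted for 8-10 h, on a cholic acid diet or chow (3 libraries each). Both of its groups carried the floxed alleles, and the labels name no Cre, no dose of cholic acid and no length of either diet. Samples of the other 4 experiments were whole liver, and the labels give neither the sex of the mice nor the hour of sampling. The labels number the samples of a group, and nothing in them says whether these were separate animals, so p-values measure the spread between these samples.

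Gene counts per library ranged from 13949059 to 70367874. All 10 hepatocyte markers, such as Alb and Ttr, were detected in every group. Levels are given as CPM, reads of a gene scaled to a common library size by the trimmed mean of M values (TMM). In the knockout experiment the targeted gene Nr0b2 stood at 0.594, 1.16 and 1.68 CPM in the knockout libraries against 13.7 to 28.2 in wild type. The other targeted gene, Nr1h4, was at 65.0, 55.7 and 58.5 against 153, 161 and 117; counts over the whole gene do not show whether a part of it was deleted, so this level does not check the labels. 1 library went against its label. Cyp2b10, the standard target gene of CAR, was at 3786 and 10.3 CPM under the corn oil label and at 3465 and 3079 CPM under the TCPOBOP label. The first library labelled corn oil was thus at the level of the TCPOBOP libraries, and the calls and counts that change without it are given beside the results.

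Levels of different genes were compared per kilobase of exon in the 5 control groups. In wild type liver the order was led by Cyp8b1 at 491 ± 63.2 CPM per kb (SD, n = 3), Cyp27a1 at 365 ± 20.5 and Slc27a5 at 335 ± 24.6. Baat followed at 232 ± 7.07, Cyp7b1 at 121 ± 19.5, Cyp7a1 at 73.2 ± 14.5 and Akr1d1 at 66.7 ± 3.74. The ranges of Cyp27a1 and Slc27a5 overlapped, as did those of Cyp7a1 and Akr1d1, so neither pair was ordered beyond its spread. Cyp39a1 stood at 42.6 ± 7.08 CPM per kb and Amacr at 42.4 ± 0.397, which was not an order either. Hsd3b7 was lowest in all 5 control groups, between 0.696 ± 0.0869 CPM per kb in sham liver (SD, n = 3) and 1.68 ± 1.23 with corn oil (SD, n = 2). That rank is uncertain, because exons of other annotated genes overlap its own and reads there may be lost. Cyp7b1, the fifth in wild type liver, led in chow-fed isolated hepatocytes with 442 ± 165 CPM per kb (SD, n = 2). Cyp7a1 was the most uneven member among libraries of 1 group, with a ratio of highest to lowest library of 6.49 in floxed chow liver, 5.69 with the high fat diet and 4.77 after hepatectomy. Slc27a5 was even, with a ratio of at most 1.39, in corn oil liver.

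**Figure D1:**
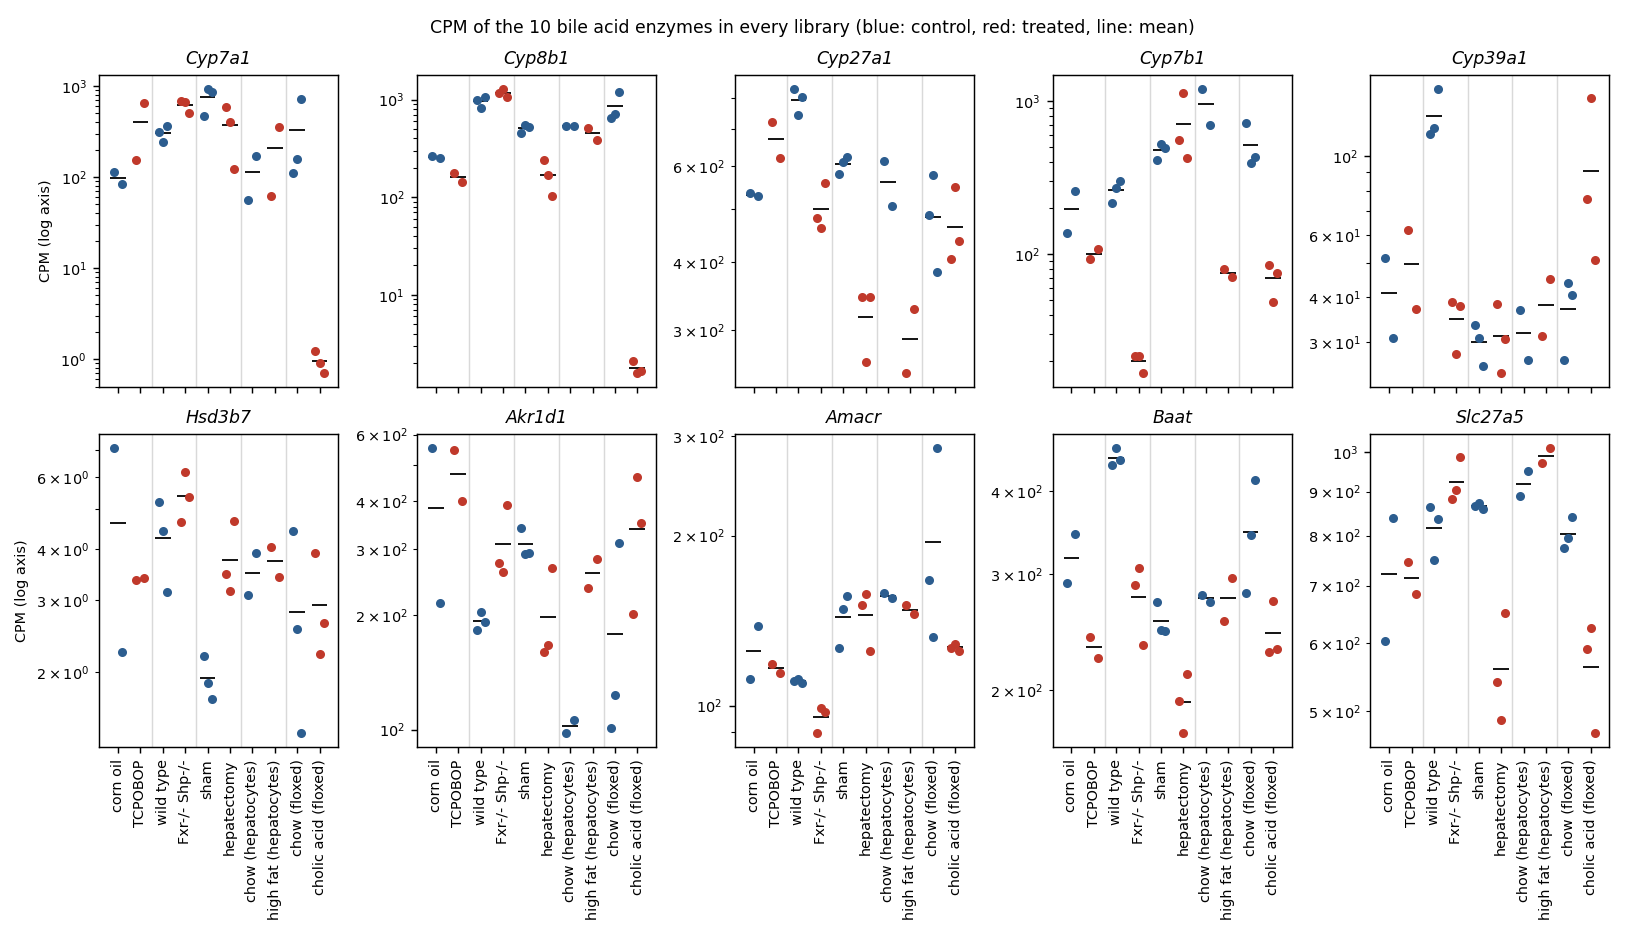
Level of each of the 10 enzymes in all 26 libraries, as CPM on a log axis, with 1 panel per gene and the groups along the horizontal axis (points are libraries, blue for controls and red for treated, and lines are group means). Cyp7a1 and Cyp8b1 drop to between 0.706 and 2.08 CPM on cholic acid, and Cyp7b1 is lowest in the knockout, high fat and cholic acid groups of their experiments.

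On cholic acid both enzymes of the classic route fell: Cyp7a1 was 342-fold and Cyp8b1 478-fold lower than on chow. In Fxr-/- Shp-/- liver Cyp7a1 was 2.02-fold higher and Cyp7b1 of the alternative route 13.2-fold lower. After hepatectomy Cyp8b1 was 3.01-fold and Cyp27a1 1.90-fold lower than in sham liver. High fat hepatocytes held 12.7-fold less Cyp7b1 and 2.54-fold more Akr1d1. With TCPOBOP no enzyme passed the test with all 4 libraries. Without the corn oil library that went against its label, Cyp8b1, Cyp7b1 and Baat were lower and Akr1d1 higher. That fit rested on 1 corn oil library with no replicate. The log2 fold change of Akr1d1 ran from -0.22 to 1.13 with 1 library left out, so its direction is uncertain.

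Calls of change were made with edgeR's quasi-likelihood test at 0.05, after Benjamini-Hochberg adjustment over all genes tested, and log2 fold changes are given ± their standard error. All 10 enzymes passed the filter on low counts in each comparison. In double knockout liver 6 of 10 were called, where 40.4% of 13473 genes were; 2 were raised and 4 lowered, against 21.0% and 19.4% of all genes. After hepatectomy 6 of 10 were called, against 30.7% of 13753 genes, with 1 raised and 5 lowered beside 16.4% and 14.3%. In hepatocytes of the high fat diet 3 of 10 were called, against 24.0% of 13892 genes, with 1 raised and 2 lowered beside 12.9% and 11.1%. On cholic acid 3 of 10 were called, against 4.77% of 12577 genes; 0 were raised and 3 lowered, beside 2.27% and 2.50%. The groups did not overlap in 9 of 10 enzymes in the knockout (53.4% of all genes), 6 after hepatectomy (47.0%), 7 on cholic acid (31.2%), 6 with the high fat diet (68.2%) and 5 with TCPOBOP (35.4%). With TCPOBOP edgeR called 0 of 10, where it called 0% of 12785 genes; 4 of 10 enzymes and 751 of all genes had an unadjusted p under 0.05. DESeq2 called 0 of 10 enzymes and 91 of all genes there. Without the first corn oil library edgeR called 4 of 10 enzymes and 1233 genes, and without the second 1 of 10, Cyp8b1, and 413 genes. Each of these fits without a corn oil library rested on 1 corn oil library with no replicate. The median log2 fold change of the 10 enzymes was -0.52 after hepatectomy and -0.51 on cholic acid, where that of all genes was 0.01. It was -0.02 in the knockout, 0.04 with the high fat diet and -0.06 with TCPOBOP, beside medians of all genes of -0.01, 0.01 and -0.02. In bulk RNA, fewer cells of a type and less RNA per cell cannot be told apart.

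Cyp7b1 and Cyp27a1 were each lowered in 3 of 5 comparisons, Cyp8b1 and Baat in 2. Akr1d1 was raised in 2 and lowered in 1, Cyp7a1 raised in 1 and lowered in 1. Cyp39a1 and Slc27a5 were lowered in 1 comparison each and Hsd3b7 was raised in 1. Amacr was called in 0 of 5, although its unadjusted p was under 0.05 in the knockout.

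**Figure D2:**
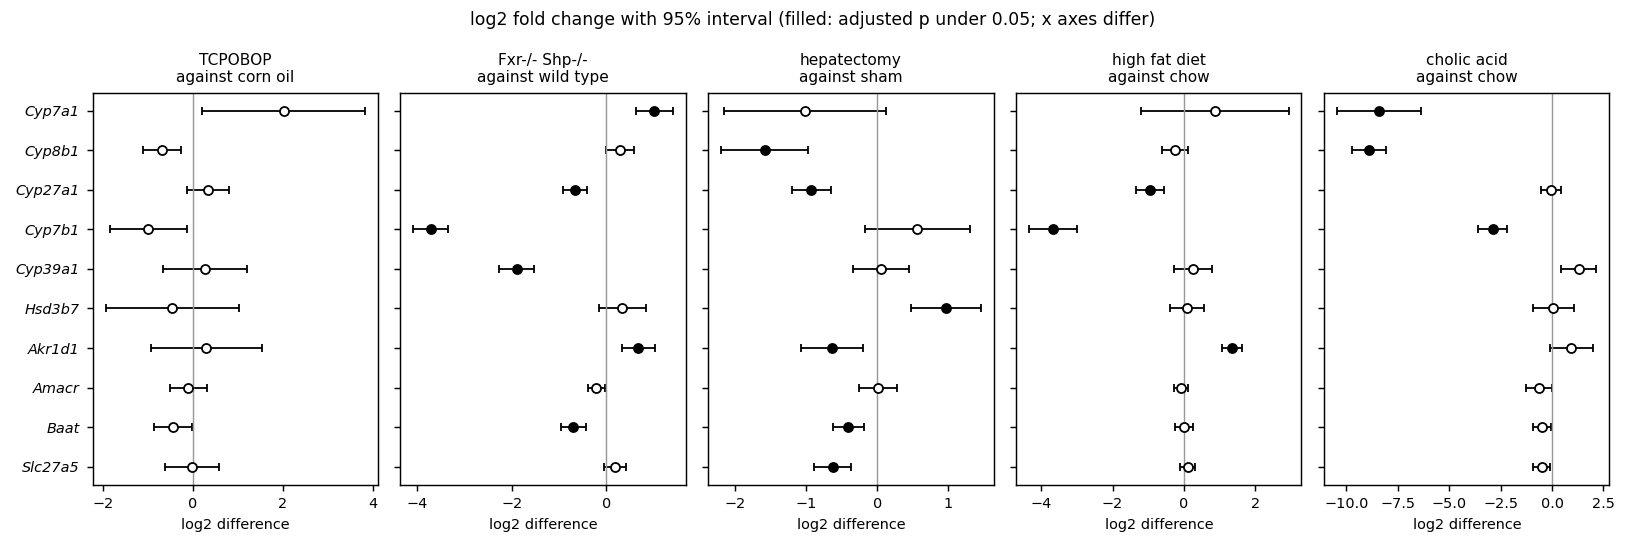
Log2 fold change of each enzyme in the 5 comparisons, treated against control, with its 95% interval (filled points have an adjusted p under 0.05). The fall of Cyp7a1 by 8.42 and of Cyp8b1 by 8.90 on cholic acid exceeds all other effects, and Cyp7b1 falls by 3.72, 3.66 and 2.89 in the knockout, high fat and cholic acid comparisons.

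Cyp7a1 (cholesterol 7-alpha-hydroxylase, ENSMUSG00000028240.2, chr4:6265612-6275633, minus strand, GRCm38) is the rate-limiting enzyme of the classic route. On cholic acid its level was 1.24, 0.897 and 0.706 CPM in the 3 libraries, against 109, 157 and 711 on chow. These treated levels rest on 25, 17 and 15 reads, and the groups lay far apart. The log2 fold change was -8.42 ± 0.89 (edgeR adjusted p = 0.00316, n = 3 per group), a 342-fold lower level. Without the third chow library, the highest, the log2 fold change was -7.13 (adjusted p = 4.35e-05), so that 1 library moved the fold by more than 1.5 times. In double knockout liver the gene moved the other way: 683, 667 and 504 CPM against 314, 241 and 361 in wild type. Every knockout library was above every wild type library, with a log2 fold change of 1.02 ± 0.17 (edgeR adjusted p = 0.00204). That call was lost when all 26 libraries shared 1 estimate of the spread (adjusted p = 0.277).

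In the other 3 comparisons Cyp7a1 was not called. After hepatectomy it stood at 591, 399.7 and 124 CPM against 471, 932 and 858 in sham liver. The groups overlapped, and the log2 fold change was -1.02 ± 0.50 (edgeR adjusted p = 0.157, 95% interval -2.16 to 0.12). Hepatocytes of the high fat diet held 61.7 and 351 CPM against 56.1 and 169 on chow, again overlapping, with a 95% interval of -1.19 to 2.94 for the log2 fold change. With TCPOBOP the levels were 153 and 646 CPM against 113 and 83.8, groups that did not overlap (log2 fold change 2.02 ± 0.70, edgeR adjusted p = 0.835). Without the first corn oil library the log2 fold change was 2.26 (adjusted p = 0.0904). It was 2.72 without the first and 0.66 without the second TCPOBOP library, so its size rests on the latter.

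The uneven levels of Cyp7a1 within groups were set beside the clock genes, a look chosen after the values were seen. Cyp7a1 is known for a daily rhythm in rodent liver, and Dbp and Arntl are clock genes that peak at opposite phases. In floxed chow liver the 3 libraries held 4.28, 10.4 and 99.6 CPM of Dbp and 16.1, 14.1 and 1.92 CPM of Arntl, so the library with the most Cyp7a1 also had the most Dbp and the least Arntl. After hepatectomy Dbp stood at 88.0, 70.8 and 4.65 CPM and Arntl at 0.933, 0.914 and 19.7, and the third library, lowest in Cyp7a1, was lowest in Dbp and highest in Arntl. The libraries labelled corn oil differed widely, with 0.284 and 70.7 CPM of Dbp, while their Cyp7a1 levels lay close together. Over all 10 groups the library with the most Cyp7a1 had the most Dbp in 4 and the least Arntl in 5. Groups of 2 or 3 libraries often give such matches without any relation, so these counts are not read as a link. Of the listed clock genes, 6 of 17 tested were called in the knockout (40.4% of all genes), 4 of 16 after hepatectomy (30.7%) and 6 of 16 with the high fat diet (24.0%). On cholic acid edgeR called 0 of 17 (4.77% of all genes), and 1 had an unadjusted p under 0.05. The part of the clock phase in the Cyp7a1 results was not tested.

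**Figure D3:**
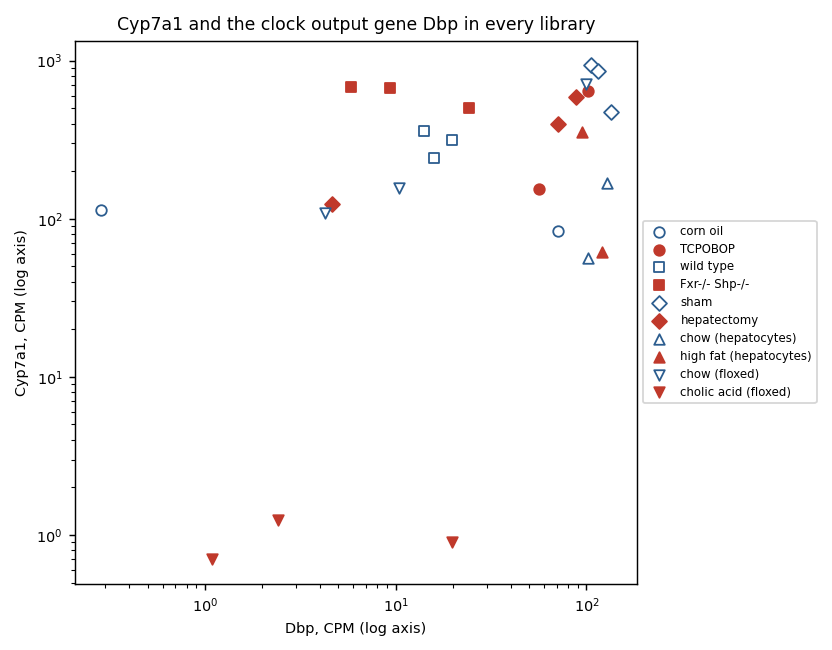
Cyp7a1 against the clock gene Dbp in every library, both as CPM on log axes (filled red for treated, open blue for controls, with 1 marker shape per experiment). In floxed chow liver the library at 711 CPM of Cyp7a1 has 99.6 CPM of Dbp, and those at 109 and 157 CPM have 4.28 and 10.4 CPM of Dbp. The library with the most Cyp7a1 also has the most Dbp in 4 of 10 groups.

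Cyp8b1 (sterol 12-alpha-hydroxylase, ENSMUSG00000050445.4, chr9:121914356-121916305, minus strand, a single exon) makes the classic route yield cholic acid. It had the most extreme change of the set: 2.08, 1.58 and 1.65 CPM on cholic acid against 651, 708 and 1189 on chow. The treated levels rest on 42, 30 and 35 reads, against 8966, 10585 and 16720 on chow. The log2 fold change was -8.90 ± 0.36 (edgeR adjusted p = 6.25e-05, n = 3 per group), a 478-fold lower level. Hepatectomy lowered it too, to 239, 168 and 103 CPM from 456, 550.3 and 527 in sham liver, with no overlap (log2 fold change -1.59 ± 0.26, edgeR adjusted p = 0.00323).

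In double knockout liver Cyp8b1 stood at 1162, 1289 and 1069 CPM against 985, 823 and 1064 in wild type. The lowest knockout library was just above the highest wild type library, and the log2 fold change of 0.29 ± 0.13 was not called (edgeR adjusted p = 0.1); without the third knockout library it was 0.37 (adjusted p = 0.0389). High fat hepatocytes held 515 and 385 CPM against 532 and 541 (log2 fold change -0.25 ± 0.15, edgeR adjusted p = 0.249). With TCPOBOP the levels were 175 and 142 CPM against 262 and 251 with corn oil, lower in both libraries (log2 fold change -0.69 ± 0.16, edgeR adjusted p = 0.812). Without the library labelled corn oil that went against its label, the log2 fold change of Cyp8b1 was -0.65 (adjusted p = 0.0312), the lone corn oil library being assumed to vary like the TCPOBOP libraries. Without the other corn oil library it was -0.72 (adjusted p = 0.0428).

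The promoter of Cyp8b1 is shown beside that of Cyp27a1, the opening enzyme of the alternative route, because Cyp8b1 fell most on cholic acid and Cyp27a1 was not called there. A promoter of 4 of the 10 enzymes was found in the RefSeq table of GRCm38.p6 (Cyp8b1, Cyp27a1, Hsd3b7 and Akr1d1). In the 250 bases before the start, both strands were searched for CAAGGNCA, the sequence bound by Lrh-1 and other monomeric nuclear receptors, and for CAAAGTCCA, a sequence bound by Hnf4a. Capitals mark the matches, and the windows are chr9:121916306-121916555 (minus strand) and chr1:74713285-74713534 (plus strand), written 5′ to 3′.
Cyp8b1: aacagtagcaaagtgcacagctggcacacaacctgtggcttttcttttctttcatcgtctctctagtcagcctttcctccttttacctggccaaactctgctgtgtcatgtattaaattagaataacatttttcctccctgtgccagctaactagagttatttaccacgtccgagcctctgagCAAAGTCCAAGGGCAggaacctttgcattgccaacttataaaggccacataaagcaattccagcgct
Cyp27a1: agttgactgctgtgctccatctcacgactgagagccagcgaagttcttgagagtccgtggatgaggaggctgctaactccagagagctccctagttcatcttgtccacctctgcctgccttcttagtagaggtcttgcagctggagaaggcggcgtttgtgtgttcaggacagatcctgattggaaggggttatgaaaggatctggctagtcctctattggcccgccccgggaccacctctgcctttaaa
Cyp8b1 held CAAAGTCCA at -67 to -59 and CAAGGGCA at -60 to -53 from the start, which overlap and form the run CAAAGTCCAAGGGCA. Cyp27a1, Hsd3b7 and Akr1d1 held neither in this window. Among 32851 promoters of the same length, CAAGGNCA occurred in 5.53%, CAAAGTCCA in 0.384% and both in 11 (0.0335%). A match describes the letters only. No promoter of Cyp7a1 or Cyp7b1, which also fell on cholic acid, was found, and a link of these letters to the response was not tested.

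Cyp27a1 (sterol 27-hydroxylase, ENSMUSG00000026170.6, chr1:74713574-74737892, plus strand) opens the alternative route. It was lower in double knockout liver, at 482, 461 and 559 CPM against 831, 744 and 802 (log2 fold change -0.66 ± 0.11, edgeR adjusted p = 0.00185). After hepatectomy it stood at 345, 263 and 345 CPM against 580.0, 609.9 and 623 (log2 fold change -0.93 ± 0.12, adjusted p = 0.000881). High fat hepatocytes held 251 and 328 CPM against 612 and 508 (log2 fold change -0.95 ± 0.16, adjusted p = 0.0148). In all 3 comparisons every treated library lay below every control library. On cholic acid the levels, 406, 550.1 and 437 CPM against 487, 578 and 383, overlapped, and the 95% interval of the log2 fold change was -0.54 to 0.42. The TCPOBOP libraries held 722 and 621 CPM against 534 and 528, a log2 fold change of 0.34 ± 0.18 (edgeR adjusted p = 0.895), and of 0.35 without the first corn oil library (adjusted p = 0.243).

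Cyp7b1 (oxysterol 7-alpha-hydroxylase, ENSMUSG00000039519.6, chr3:18071950-18243338, minus strand) adds the ring hydroxyl in the alternative route and is known for a higher level in male than in female mouse liver. In double knockout liver it stood at 21.7, 21.6 and 16.7 CPM against 216, 273 and 299 in wild type, 20.0 ± 2.85 against 263 ± 42.2 (SD, n = 3). The groups were far apart, with a 13.2-fold lower level (log2 fold change -3.72 ± 0.16, edgeR adjusted p = 1.53e-06). High fat hepatocytes showed 80.2 and 71.1 CPM against 1211 and 705, 12.7-fold lower (log2 fold change -3.66 ± 0.27, edgeR adjusted p = 0.00208). On cholic acid the levels were 85.5, 48.6 and 74.8 CPM against 721, 396 and 435, 7.42-fold lower (log2 fold change -2.89 ± 0.31, edgeR adjusted p = 0.00353). None of these 3 comparisons had an overlap between its groups.

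After hepatectomy Cyp7b1 was not called, and the regenerating livers held 562, 1142 and 423 CPM against 414, 527 and 494 in sham liver. The groups overlapped (log2 fold change 0.57 ± 0.32, edgeR adjusted p = 0.22). Without the third hepatectomy library the log2 fold change was 0.83 (adjusted p = 0.0404), and without the second 0.039 (adjusted p = 0.877). With TCPOBOP Cyp7b1 stood at 93.1 and 108 CPM against 137 and 261 with corn oil, lower in both libraries (log2 fold change -0.99 ± 0.33, edgeR adjusted p = 0.835). Without the first corn oil library, which went against its label, the log2 fold change was -1.37 (adjusted p = 0.000728). The remaining corn oil library had no replicate in that fit.

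Cyp39a1 (ENSMUSG00000023963.9, chr17:43667425-43751431, plus strand) hydroxylates 24-hydroxycholesterol and feeds a minor branch of the route. The knockout libraries held 38.8, 27.8 and 37.8 CPM against 115, 119.7 and 155 in wild type, all lower, a 3.73-fold difference (log2 fold change -1.90 ± 0.16, edgeR adjusted p = 5.07e-05). On cholic acid it stood at 75.5, 146 and 51.0 CPM against 26.6, 43.8 and 40.7, with each treated library above each chow library. The log2 fold change of 1.29 ± 0.38 was not called by edgeR (adjusted p = 0.0902). It was called in 3 of 6 other settings, DESeq2 among them (adjusted p = 0.0103). In the remaining comparisons its log2 fold change was between 0.06 and 0.27, with overlapping groups and no call. Without the first corn oil library that with TCPOBOP was 0.70 (adjusted p = 0.171).

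Of the enzymes that modify the ring in both routes, Akr1d1 (the 5-beta-reductase, ENSMUSG00000038641.12, chr6:37530173-37568815, plus strand) rose in 2 comparisons. In double knockout liver it reached 274, 261 and 391 CPM against 183, 204 and 192 (log2 fold change 0.68 ± 0.15, edgeR adjusted p = 0.0083). High fat hepatocytes held 236 and 282 CPM against 98.2 and 106 on chow (log2 fold change 1.34 ± 0.11, edgeR adjusted p = 0.00307). The groups were apart in both; with all 26 libraries in 1 fit the adjusted p was 0.178 in the knockout and 0.0541 with the high fat diet. Hepatectomy went the other way, to 159.8, 167 and 267 CPM from 341, 291 and 293 (log2 fold change -0.64 ± 0.19, edgeR adjusted p = 0.0374). That fall was lost in 5 of the 6 fits that left out a library, all but the one without the third hepatectomy library, and in the fit of all 26 (adjusted p = 0.227). On cholic acid Akr1d1 stood at 202, 465 and 350.3 CPM against 101, 123 and 311, with overlap (log2 fold change 0.93 ± 0.46, edgeR adjusted p = 0.27). The third chow library was the one that overlapped, and without it the log2 fold change was 1.60 (adjusted p = 0.0254). TCPOBOP livers held 545 and 400.3 CPM against 552 and 216, so the 2 corn oil libraries differed from each other by more than the treated ones. Without the first corn oil library the log2 fold change was 1.13, against 1 corn oil library with no replicate.

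Hsd3b7 (the 3-beta-hydroxysteroid dehydrogenase of the ring, ENSMUSG00000042289.11, chr7:127800604-127803802, plus strand) was counted at 1.42 to 7.05 CPM over all libraries. Its exons overlap 1729 bases of the opposite-strand gene 9430064I24Rik and 1717 bases of Gm49388 on its own strand in GENCODE M21. The use of strand in the counting is not given in the sources used here, so its level is uncertain. After hepatectomy it stood at 3.47, 3.15 and 4.67 CPM against 2.19, 1.88 and 1.71 in sham liver, without overlap (log2 fold change 0.96 ± 0.21, edgeR adjusted p = 0.0117). The rise was lost without the second (adjusted p = 0.0508) or the third sham library (0.0514) and in the fit of all 26 (adjusted p = 0.0535). It was not called in the other 4 comparisons.

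The conjugating enzymes act last. Slc27a5 (bile acyl-CoA synthetase, ENSMUSG00000030382.14, chr7:12988346-12998192, minus strand) activates bile acids with coenzyme A. Hepatectomy libraries held 541, 488 and 651 CPM of it against 865, 873 and 859 in sham liver, all lower (log2 fold change -0.63 ± 0.11, edgeR adjusted p = 0.00443). On cholic acid the levels of 590.3, 624 and 473 CPM lay below all chow libraries at 773, 795 and 842. The log2 fold change of -0.51 ± 0.17 was not called (edgeR adjusted p = 0.125). It was called in 2 of 6 other settings, DESeq2 among them (adjusted p = 0.0373). In the knockout, high fat and TCPOBOP comparisons its log2 fold change was 0.18, 0.11 and -0.01, with no call.

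Baat (ENSMUSG00000039653.9, chr4:49489422-49506557, minus strand) transfers the activated bile acid to taurine or glycine. It was lower in double knockout liver, at 289, 307 and 234 CPM against 438, 465 and 447 (log2 fold change -0.70 ± 0.12, edgeR adjusted p = 0.00184). Hepatectomy lowered it to 193, 173 and 212 CPM from 272, 247 and 246 (log2 fold change -0.41 ± 0.10, edgeR adjusted p = 0.0154). Both pairs of groups were apart. High fat hepatocytes held 255 and 296 CPM against 279 and 272, and the 95% interval of the log2 fold change was -0.25 to 0.25. On cholic acid the levels were 229, 273 and 231 CPM against 281, 344 and 417, apart but not called (log2 fold change -0.51 ± 0.19, edgeR adjusted p = 0.163). That fall was called in 1 of 6 other settings. With TCPOBOP the levels of Baat were 241 and 224 CPM against 291 and 345 (log2 fold change -0.45 ± 0.16, edgeR adjusted p = 0.839). Without the first corn oil library the log2 fold change was -0.57, against 1 corn oil library with no replicate.

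Amacr (alpha-methylacyl-CoA racemase, ENSMUSG00000022244.6, chr15:10981756-10996626, plus strand) prepares the side chain for shortening in peroxisomes. Its lowest library held 89.6 CPM and its highest 286, the third floxed chow library. In the knockout it stood at 89.6, 99.1 and 97.3 CPM against 110.5, 112 and 109.6, all lower, with a log2 fold change of -0.21 ± 0.08 (edgeR adjusted p = 0.0616). On cholic acid Amacr stood at 126, 129 and 125 CPM against 167, 132 and 286 on chow, all lower. That log2 fold change of -0.62 ± 0.27 was not called (edgeR adjusted p = 0.218), but 1 of 6 other settings called it. With 1 library left out it ran from -0.84 to -0.24. The 95% interval of the Amacr log2 fold change after hepatectomy was -0.26 to 0.28 and with the high fat diet -0.27 to 0.11.

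Log2 ratios of Cyp7a1 to Cyp7b1 and of Cyp8b1 to Cyp27a1 were taken within each library, with 0.5 CPM added to each gene. No test was made. These ratios compare the RNA of single enzymes and do not measure the flow through either route. The second ratio in particular is not read as a balance of the routes. Cyp7a1 to Cyp7b1 was 4.91 ± 0.04 in double knockout liver against 0.21 ± 0.36 in wild type (SD, n = 3), a difference of 4.70. The 3 knockout libraries were close to each other, with linear ratios of 30.8, 30.3 and 29.3. On cholic acid the log2 ratio was -5.58 ± 0.42 against -1.11 ± 1.72 on chow (SD, n = 3), a difference of -4.46. It depends on the CPM added, because Cyp7a1 was so low there. With 0.1 or 1 CPM added, or without TMM scaling, the difference ran from -4.94 to -4.04. After hepatectomy it was -1.07 ± 1.00 against 0.60 ± 0.36 (SD, n = 3). With the high fat diet it was 0.96 ± 1.89 against -3.24 ± 1.67, and with TCPOBOP 1.65 ± 1.32 against -0.95 ± 0.96 (SD, n = 2). The ratio was thus higher in the knockout, high fat and TCPOBOP groups than in their controls. It was lower in the hepatectomy and cholic acid groups, and no pair of groups overlapped. With 1 library left out the difference ran from 2.86 to 5.53 with the high fat diet and from 1.67 to 3.53 with TCPOBOP. After hepatectomy it ran from -2.24 to -1.32. Neither gene was called after hepatectomy or with all TCPOBOP and corn oil libraries. With the high fat diet only Cyp7b1 was called.

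Cyp8b1 to Cyp27a1 took a different course in 1 experiment. With TCPOBOP its log2 ratio was -2.08 ± 0.06 against -1.05 ± 0.03 (SD, n = 2), lower where the first ratio was higher. Without the first corn oil library the differences were 3.28 for the first ratio and -1.01 for this one. It was 1.23 ± 0.28 against 0.27 ± 0.13 in the knockout and -0.97 ± 0.67 against -0.24 ± 0.10 after hepatectomy (SD, n = 3). With the high fat diet it was 0.63 ± 0.57 against -0.06 ± 0.21 (SD, n = 2), a rise of the ratio in which Cyp27a1 fell and Cyp8b1 was not called. On cholic acid it was -7.67 ± 0.37 against 0.78 ± 0.74 (SD, n = 3), a difference of -8.45. That difference ran from -8.73 to -8.16 with 0.1 or 1 CPM added or without TMM scaling. Again no pair of groups overlapped.

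**Figure D4:**
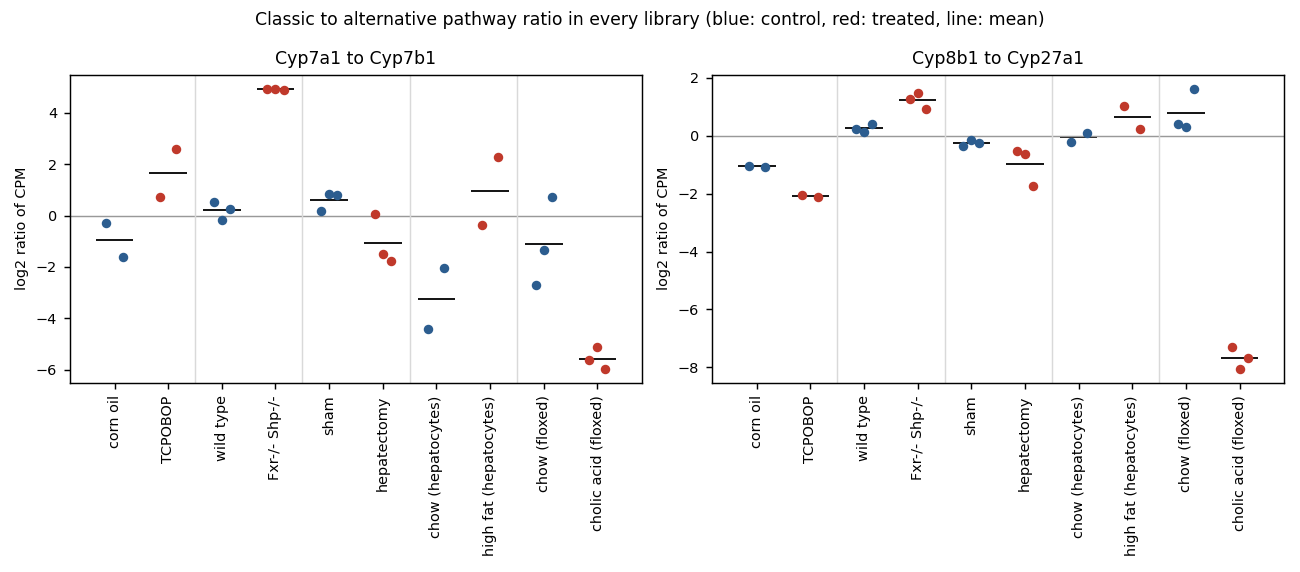
Log2 ratio of Cyp7a1 to Cyp7b1 (left) and of Cyp8b1 to Cyp27a1 (right) in every library, controls in blue and treated libraries in red, with a line at the group mean. The knockout libraries sit at a mean of 4.91 on the left, and the cholic acid libraries at -5.58 on the left and -7.67 on the right.

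Differences between effects were tested directly in 3 pairs of experiments that share no library. Between the knockout and cholic acid effects 4 of 10 enzymes differed, where 13.9% of all genes did. The effect on Cyp7a1 was higher in the knockout by 9.45 ± 0.89 in log2 units (edgeR, adjusted p = 4.81e-05), and that on Cyp8b1 by 9.20 ± 0.36 (adjusted p = 2.18e-08). With 1 library left out the difference for Cyp7a1 ran from 8.15, without the third chow library, to 9.86. For Cyp39a1 it was lower by the difference -3.19 ± 0.46 (adjusted p = 0.000944). Cyp7b1, lowered in both, differed by -0.82 ± 0.35 (adjusted p = 0.144, 95% interval -1.58 to -0.06), and by -1.13 (adjusted p = 0.0295) without the first chow library. Slc27a5 differed by 0.70 ± 0.19 (adjusted p = 0.0304), a call lost in 8 of the 12 fits without 1 library and kept without the first or the third chow or the first or the second cholic acid library.

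Hepatectomy and cholic acid effects differed for 4 of 10 enzymes, against 13.0% of genes. Both lowered Cyp8b1, but the difference was 7.32 ± 0.45 (edgeR adjusted p = 1.43e-05). For Cyp7a1 it was 7.41 ± 1.06 (adjusted p = 0.00116; 6.11 without the third chow library and up to 7.83 without another) and for Cyp7b1 3.47 ± 0.50 (adjusted p = 0.00116). For Cyp27a1, lowered by hepatectomy alone of this pair, it was -0.87 ± 0.24 (adjusted p = 0.035), which 7 of 12 fits without 1 library lost; it held without the first or the third hepatectomy, the second or the third chow or the first cholic acid library. Among those not called for this pair were Akr1d1 (-1.56 ± 0.56, edgeR adjusted p = 0.085) and Cyp39a1 (-1.23 ± 0.46, edgeR adjusted p = 0.0959). Of 6 other settings, 4 called Akr1d1 and 2 called Cyp39a1. Knockout and high fat effects differed for 2 of 10, against 16.1% of genes. These were Cyp39a1, by -2.16 ± 0.30 (adjusted p = 0.000831), and Baat, by -0.69 ± 0.17 (adjusted p = 0.0225), the latter lost without either chow library or the second high fat library. Akr1d1 differed by -0.66 ± 0.22 and was not called (edgeR adjusted p = 0.068), but 2 of 6 other settings called it. Cyp7b1 differed by -0.05 ± 0.31 between the knockout and high fat effects (95% interval -0.72 to 0.63), an interval that still allows falls of unequal size. Experiment, strain, age, feeding, the floxed Fxr and Shp alleles and tissue (whole liver or isolated hepatocytes) cannot be told apart from the perturbations where a pair differs in them.

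**Figure D5:**
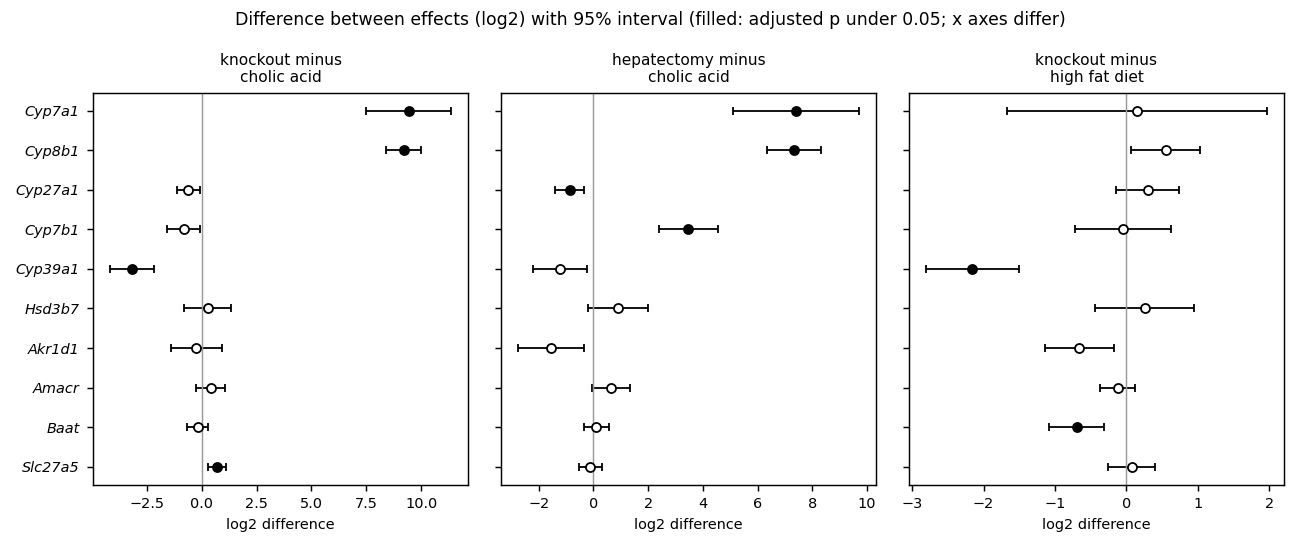
Difference between the log2 effects of 2 experiments for each enzyme, with its 95% interval (filled points have an adjusted p under 0.05; the horizontal axes differ). Cyp7a1 and Cyp8b1 lie at 9.45 and 9.20 for knockout minus cholic acid and at 7.41 and 7.32 for hepatectomy minus cholic acid.

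The wider pathway was read from a list of 21 other bile acid synthesis genes, of which 20 were matched. In the knockout 3 of 19 tested were raised and 4 lowered, beside 40.4% of all genes called in either direction; Stard4, a cholesterol carrier, rose by 1.66 on the log2 scale, and the peroxisomal thiolase gene Scp2 fell (-0.68). After hepatectomy 1 was raised, the side chain oxidase Acox2 (0.87), and 8 were lowered, beside 30.7% of all genes called. The latter included Fdx1 (-1.10) and Por (-1.09), which pass electrons to cytochromes P450. On cholic acid 5 of 19 were lowered, where 2.50% of all genes were: Hsd17b10 (-1.45), Slc27a2 (-1.36), Scp2 (-1.21), Fdx1 (-1.13) and Acot8 (-0.95). The high fat diet raised 3 of 19 and lowered 2, beside 24.0% of all genes called, and Stard4 was among the latter (-0.93). With TCPOBOP 0 of 18 were called by edgeR, and 2 had an unadjusted p under 0.05.

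Of 19 regulators of bile acid synthesis, Fgf15 had 0 counts in all 26 libraries and 18 were tested. In the knockout 11 of 18 were called, beside 40.4% of all genes, with 1 raised and 10 lowered, beside 21.0% and 19.4%. The 10 include the genes that the knockout targets, whose fall is not a separate result. Lowered were, among others, the targeted Nr0b2 (-4.03) and Nr1h4 (-1.27), Foxo1 (-1.37), Ppara (-0.98), Mafg (-0.94) and Hnf4a (-0.78), a hepatocyte master regulator. The raised gene, named after its value was seen, was Zfp36l1 (0.53). On cholic acid 5 of 18 were called, beside 4.77% of all genes. Nr0b2 rose by 1.96, with 89.6, 42.6 and 60.3 CPM against 14.4, 16.9 and 18.2 on chow. Mafg (0.83), a repressor gene downstream of Fxr, Ppargc1a (1.08) and Nr1i2 (0.68) rose as well, and Nr1h4 fell (-1.01). Hepatectomy changed 7 of 18, beside 30.7% of all genes: it raised Nr0b2 by 1.99 and lowered 6 others, led by Ppargc1a (-1.74) and Foxo1 (-1.15). The high fat diet lowered 3 of 18, beside 24.0% of all genes called in either direction: Nr1d1 (-1.29), Klb (-0.69), the co-receptor for Fgf15, and Hnf4a (-0.68). All these values are log2 fold changes called by edgeR.

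Markers of liver zones and of other cells were called in some comparisons. Of all genes 21.0% were raised and 19.4% lowered in the knockout, and 16.4% and 14.3% after hepatectomy. With the high fat diet these shares were 12.9% and 11.1%, and on cholic acid 2.27% and 2.50%. Of 10 pericentral hepatocyte markers 8 were lowered with the high fat diet, where their summed level was 8994 to 9873 CPM against 14177 to 15026. On cholic acid 4 of 9 tested were lowered, with sums of 6244 to 8032 CPM against 13409 to 15246. 1 abundant gene, Cyp2e1, made up most of these pericentral sums. It stood at 7977 and 8969 CPM with the high fat diet against 12195 and 11574 on chow. In the knockout 2 of 10 pericentral markers were raised and 2 lowered, near the shares of all genes, and after hepatectomy 1 and 3. Of 10 periportal markers 6 were lowered in the knockout and 1, Hsd17b13, raised (4989 to 6852 CPM against 10749 to 13227), and 7 were lowered after hepatectomy (6064 to 7261 against 10521 to 11534). With the high fat diet 4 periportal markers were raised and 2 lowered, with sums of 12004 to 12876 CPM against 13030.3 to 14513. The abundant Pck1 weighed heavily in the periportal sums. It stood at 2856 and 3927 CPM with the high fat diet against 6261 and 5826 on chow. In the knockout it stood at 1385, 1344 and 1670 CPM against 5401, 4848 and 6646. On cholic acid 1 was raised, Hal, and 0 were lowered. General hepatocyte markers were called lower for 5 of 10 in the knockout (81261 to 107137 CPM in sum against 111439 to 141658) and 6 of 10 after hepatectomy (115815 to 124815 against 144646 to 148115), beside the falls of Cyp27a1 and Baat there. After hepatectomy 1 of them, Ahsg, was raised.

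Isolated hepatocytes of the high fat diet, where 12.9% of all genes were raised, held higher levels of markers of other cells. All 8 sinusoidal endothelial markers were raised (139.7 to 141 CPM in sum against 57.5 to 58.1), as were 7 of 8 stellate markers (40.1 to 43.9 against 10.1 to 16.6) and 4 of 8 Kupffer cell and leukocyte markers (59.9 to 69.4 against 38.0 to 38.9). The summed hepatocyte markers stood at 102947 to 103824 CPM against 107376 to 108423, with 2 of 10 lowered, 9 of 10 whose groups did not overlap (68.2% of all genes) and a median log2 fold change of -0.22. The cholangiocyte marker Cftr was at 0 in both hepatocyte groups, and Krt19 and Epcam were at 0 on chow. In the knockout, 6 of 8 stellate markers (449.9 to 510.4 CPM against 208 to 343) and 5 of 7 cholangiocyte markers (58.4 to 137 against 27.4 to 38.8) were raised. Of all genes 21.0% were raised there. The part of these markers in the enzyme results was not tested. Non-unique alignments also differed, at 43.2 to 44.1% of reads in wild type against 25.5 to 26.9% in the knockout and 23.8 to 25.1% in floxed chow against 16.6 to 17.6% on cholic acid, and their part was not tested.

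Genes whose pattern was most like that of an enzyme were ranked by Pearson's r of log2(CPM + 1), centred on the mean of each experiment, over the 26 libraries and among 9604 genes. For Cyp7a1 they were Mgst1 (r = 0.90), Cyp8b1 (0.90) and Ebp (0.88), and for Cyp8b1 Paqr9 (0.95), Ebp (0.94) and Mgst1 (0.92). Without the 6 libraries of the cholic acid experiment these fell to between 0.22 and 0.50, and the 2 enzymes correlated at 0.31. The likeness of Cyp7a1 and Cyp8b1 thus rested on that experiment. For Cyp7b1 they were Klhl2 (0.94), Serpina1e (0.94) and the complement gene C6 (0.93), and without the cholic acid experiment these stood at 0.94, 0.94 and 0.95. Serpina1e belongs to a family of near-identical genes, and its reads may be split among them. Among the enzymes, Cyp7b1 and Akr1d1 were opposed, at -0.76 over 26 libraries and -0.79 over the 20 others. The libraries of a group share their treatment, so these values describe the pattern and carry no p.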

How the data were processed

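Read counts of each gene in 26 libraries were deposited by the authors, with versioned Ensembl identifiers, and the values were whole numbers of at least 0. Per the labels, RNA was extracted with a column kit and libraries were made with a stranded TruSeq mRNA kit. Per the submitters' processing notes, bcl2fastq 2.17.1.14, Trimmomatic, STAR 2.4.2a, Picard 1.119 and HTSeq were used with GRCm38 (mm10); the annotation and the strand setting are not given in the sources used here. Reads from near-identical or overlapping genes may therefore be split or lost. The 5 summary lines for unassigned reads were left out, and 0 per-sample columns were unused.

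Groups came from the sample titles. Symbols were matched by identifier without version, and coordinates and exon lengths came from GENCODE M21 (GRCm38), which carries the same identifier version for 7 of the 10 enzymes. Each treated group was tested against its own control: filterByExpr at its defaults (minimum count 10, minimum total 15), TMM, and the quasi-likelihood F test of edgeR 4.0.16 (with limma 3.58.1 in R 4.3.3), with Benjamini-Hochberg adjustment over all genes tested, after tests on simulated data. The standard error of a log2 fold change was its size over the root of its F value. Differences between effects were interaction contrasts.

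The enzymes and the gene lists were chosen with earlier results of these data known. All 10 enzymes were named; of each list, at most 6 called genes were named by absolute log2 fold change, and at most 3 genes of most similar pattern for Cyp7a1, Cyp8b1 and Cyp7b1. Alternatives were DESeq2 1.42.0 (size factors, Wald test), no filter, a minimum mean count of 10, 1 fit of all 26 libraries, a replicate block, and each library left out. Depth sets a limit only for the lowest levels: 3 counts were taken as the floor of detection, and no enzyme was below it.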

Additional observations from a re-analysis of the deposited data

How the results depend on the processing

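The 10 enzymes gave 50 effects in 5 comparisons, of which 18 were called. Over 560 alternative values, 507 kept direction and side of the threshold, 12 lost a call, 15 gained one and 26 changed sign, all of them on effects that were not called. Of the 18 called effects 13 held in every alternative run and 5 were lost in some; 11 uncalled effects were called in some.

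With each library left out in turn, the number of enzymes called ranged from 0 to 4 for TCPOBOP (4 without the first corn oil library, 1 without the second) and from 1 to 3 for the difference between knockout and high fat effects. On cholic acid, DESeq2's Wald test called 5 enzymes and the fit of all 26 libraries called 7. Over all genes these settings called 1445 and 3132, against 600, and TCPOBOP without the first or second corn oil library called 1233 or 413 genes, against 0. With all 26 libraries in 1 fit the raised share of all calls was 68.4% with the high fat diet, against 53.7%, and 39.2% against 49.6% for knockout minus high fat effects. Log2 fold changes that changed sign with a library left out ranged, for TCPOBOP, from -1.06 to 0.60 (Hsd3b7), -0.14 to 0.70 (Cyp39a1), -0.22 to 1.13 (Akr1d1), -0.24 to 0.069 (Amacr) and -0.23 to 0.25 (Slc27a5). After hepatectomy the ranges were -0.078 to 0.10 (Amacr) and -0.12 to 0.20 (Cyp39a1). With the high fat diet they were -0.88 to 1.87 (Cyp7a1), -0.074 to 0.27 (Hsd3b7), -0.12 to 0.10 (Baat) and -0.026 to 0.51 (Cyp39a1), and on cholic acid -0.20 to 0.094 (Cyp27a1) and -0.25 to 0.56 (Hsd3b7). Baat with the high fat diet was 0.0024 at a mean count of at least 10 and 0.028 with all 26 libraries, against -0.00015. The causes were not tested. A fit that left a group with 1 library assumed that it varied like the others.

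Same-numbered libraries share only a number: the correlation of their deviations was 0.142 for TCPOBOP and 0.140 for the high fat diet, and not above 0.1 in every pair elsewhere. On cholic acid each library correlated best with its own number (0.124, 0.161 and 0.0898), a hint from the data and not from the design. With the replicate number as a block, the number of enzymes called stayed at 0, 6, 6, 3 and 3 in the 5 comparisons, and Slc27a5 with TCPOBOP was 0.0052. The block ended the call of Slc27a5 for knockout minus cholic acid (adjusted p = 0.0692). Groups of 2 or 3 libraries limit what each test can detect.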

Other observations

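Cyp46a1, the cholesterol 24-hydroxylase known mainly from brain, stood apart by experiment among the other bile acid synthesis genes; it was singled out after its values were seen. Its level was 329.8, 342 and 372 CPM in sham liver of C3H/HeN mice and 39.7, 25.6 and 39.2 CPM after hepatectomy, with no overlap (log2 fold change -3.32 ± 0.18, edgeR adjusted p = 1.01e-05, n = 3 per group). In the 20 libraries of the other experiments it lay between 0 and 7.53 CPM, with a median of 0.890. High fat hepatocytes held 5.82 and 7.53 CPM against 0.839 and 1.86 on chow (log2 fold change 2.29 ± 0.36, edgeR adjusted p = 0.0123, n = 2 per group). Its product, 24-hydroxycholesterol, is the substrate of Cyp39a1, which stood at 33.4, 30.8 and 25.6 CPM in sham liver and 38.4, 24.5 and 30.5 CPM after hepatectomy, with overlap. Strain and experiment cannot be told apart here.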
